A study of Homo sapiens with 6 samples.

Results

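The genes described are 36 enzymes, transporters and receptors of sphingolipid metabolism and sphingosine-1-phosphate (S1P) signalling, selected by symbol from the 52401 genes of each deposited table. All 36 were found; the 6 ceramide synthases are listed there under their older LASS names and are called CERS1 to CERS6 here. They were compared between 2 lines of MCF10A, a non-tumorigenic human mammary epithelial line. The control line was made with a single retroviral vector for mCherry and puromycin selection. The flotillin line was made with 2 retroviral vectors, for flotillin-1-HA and flotillin-2-mCherry, and selected with puromycin and hygromycin. Each group is 1 stable line with 3 RNA samples, all grown in medium with horse serum, insulin, EGF, hydrocortisone and cholera toxin, so flotillin level, vector number and hygromycin cannot be told apart. The labels do not say that the samples of a group were separate cultures, in which case the tests below reflect no more than variation among these RNA samples, possibly technical.

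Sphingolipids are built on a long-chain base. Serine palmitoyltransferase makes the base from serine and palmitoyl-CoA, ceramide synthases attach a fatty acid to it, and the resulting ceramide is turned into sphingomyelin, glucosylceramide or ceramide-1-phosphate. In the other direction sphingomyelinases and ceramidases release ceramide and then sphingosine, which sphingosine kinases phosphorylate to S1P. S1P is dephosphorylated by S1P phosphatases, cleaved by S1P lyase, or exported and sensed by G protein-coupled receptors. Flotillins are scaffold proteins of membrane microdomains, which are rich in sphingolipids and cholesterol. Transcripts were measured here, and neither lipids nor enzyme activities were.

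The deposited tables hold group values and no columns for single samples, but the group means of normalized counts were deposited with enough digits to return the whole reads of 3 libraries per group. The 6 recovered libraries held 17099469 to 18350161 reads in the genes so solved. No replicate number goes with them, so they are numbered 1 to 3 in each line by size factor, the highest first. As a check of the labels, FLOT1 stood at 16771 in flotillin cells against 1474 in control and FLOT2 at 41052 against 3727 mean normalized counts. Of the basal markers, 3 of 4 fell (KRT14, TP63 and ITGA6) by the authors' adjusted p. The KRT14 libraries overlapped between the lines, at 287 to 2638 in control and 120 to 430 in flotillin cells. KRT5, not called, stood at 48381 in control and 67351 in flotillin cells. Of the epithelial markers EPCAM fell from 4607 to 81.0, CDH1 fell from 17575 to 78.8, and KRT18 was not called, at 4916 and 5051; their summed normalized counts per library were 23087 to 33893 in control and 4417 to 5903 in flotillin cells. Fibroblast markers gave 1 rise (PDGFRB) and 1 fall (COL1A1) among 3, with sums of 199 to 402 and 115 to 206. Immune markers summed to 359.6 to 1227 and 965 to 1653, nearly all of it CD68, which was not called, and of the luminal receptors ESR1 was not called and PGR is listed at 0. The leukocyte gene PTPRC was at 2.56 and 0.343, the endothelial gene CDH5 at 0.956 and 0.333, and the T cell gene CD3E at 0. The lower basal markers, EPCAM and CDH1 moved with the same contrast as every sphingolipid difference below, and their part in them was not tested. Library 3 of both groups stood apart in proliferation genes: all 12 examined, among them MKI67 and TOP2A, were highest there, and none was called between the lines. They stood there at 2.04 to 9.19 times the mean of libraries 1 and 2 in control and 2.13 to 6.45 times in flotillin cells. No label sets library 3 apart: it was singled out by its values in these data. Fits below that drop it or give it a term rest on that choice.

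In the flotillin line, sphingolipid genes were more often lower than higher. Of the 31 members with an adjusted p in the authors' deposited table of means, 11 fell and 4 rose at an adjusted p under 0.05, and 16 were not called. Across all 19733 tested genes 12.0% fell and 11.6% rose (23.6% together). The members' median log2 fold change in that table was -0.63, against -0.04 over all tested genes. The 11 that fell were SPTLC1, SPTLC2, CERS6, SGMS1, UGCG, ACER2, ACER3, SGPP1, SGPP2, SGPL1 and S1PR2, and the 4 that rose were SPTLC3, CERK, SMPD1 and S1PR3. Calls lay at every step of the pathway except the sphingosine kinases and the S1P exporters. In bulk RNA a lower level per cell and a smaller share of cells expressing a gene cannot be told apart.

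Other routes through the same data called nearly the same members. In limma on the recovered libraries, 9 of 28 members with a mean of at least 10 fell and 4 rose (11.1% and 12.1% of the 15818 genes fitted, 23.2% together). All 13 were among the 15, in the same direction; SGPP2 and S1PR2 were the members not called. In the authors' deposited Tuxedo table, which gives FPKM (fragments per kilobase scaled to library size, a level per length), 11 of 26 tested members fell and 2 rose at a q-value under 0.05 (10.0% and 6.93% of 17022 tested genes, 16.9% together). The 11 members were those that fell in the table of means, while CERK and SPTLC3 were not called there. All 3 libraries of one line lay outside the range of the other for each of the 15 called members. Over the 28 members of the fit, 15 lay below and 6 above the control range without overlap, and over all fitted genes the shares were 21.1% and 24.0% (45.1% together). Leaving out any single library except control library 3 (10 falls and 4 rises) lowered the limma counts. They were 3 falls and 2 rises without control library 2, and 2 falls and 1 rise without flotillin library 2. Without flotillin library 1 they were 2 falls and 0 rises (4 rises at an unadjusted p under 0.05). Shares over all fitted genes were not counted for these fits, so a drop particular to the members cannot be told from a general one. SPTLC2 and UGCG passed in all 6 such fits, with adjusted p-values of at most 0.0379 and 0.0426. S1PR3 and SGPL1 missed the threshold only without flotillin library 1 or 2, at 0.0537 and 0.0546 for S1PR3 and 0.0754 and 0.0614 for SGPL1, and CERK only without flotillin library 1, at 0.0576. The other called members missed it in 3 to 5 of the 6 fits. The direction of the 15 could not change in any of the 6, because their libraries did not overlap between the lines.

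**Figure D1:**
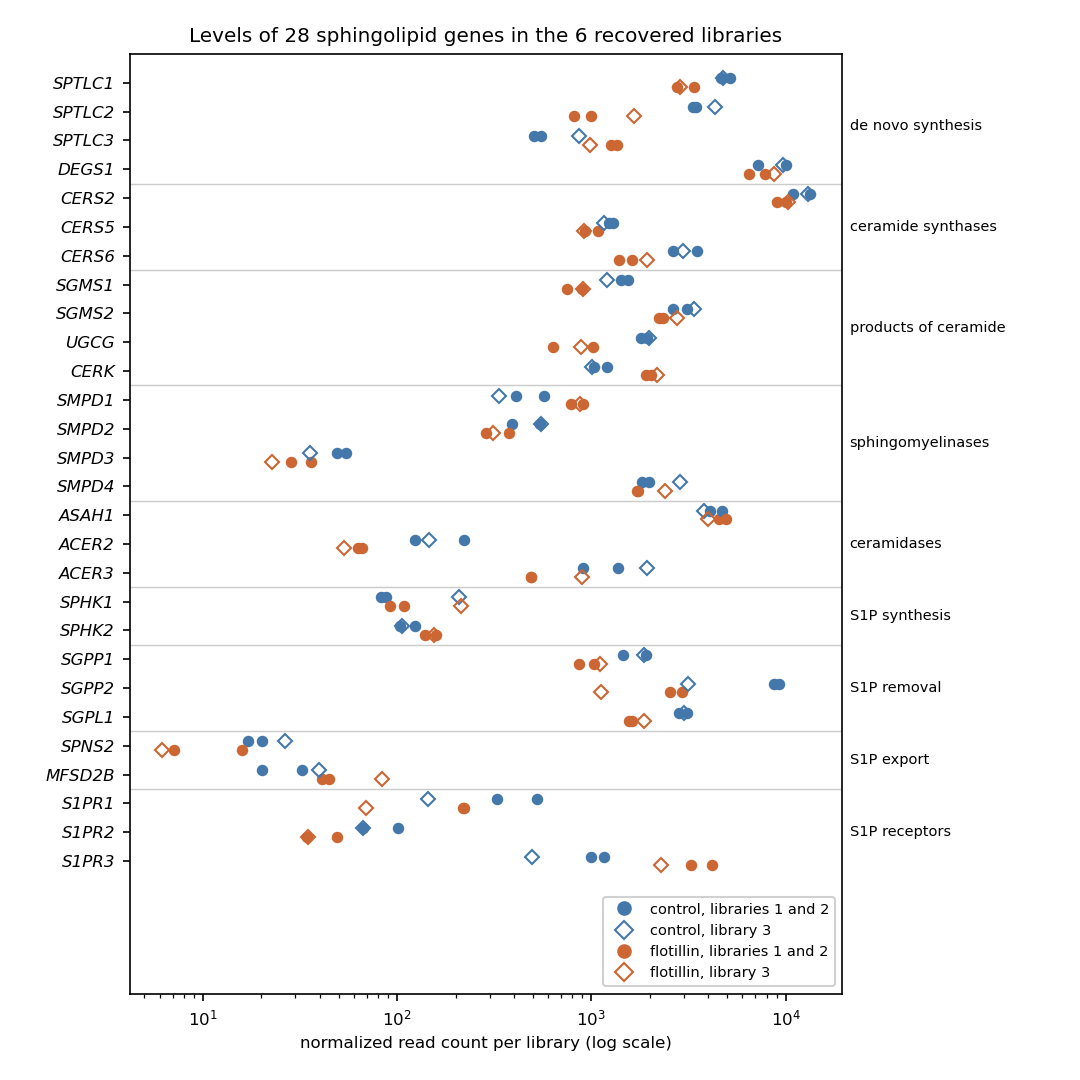
Normalized read count (log scale) of the 28 members with a mean of at least 10 in each recovered library, with control in blue and flotillin in orange, and library 3 of each group as an open diamond. The S1PR3 points of the flotillin line lie at 2276 to 4171, all above the control points at 493 to 1169, while the SPHK1 points of the groups overlap.

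Promoter sequence is shown for SPTLC2 and S1PR3, the members with the largest fall and rise by the authors' log2 fold change, and for SPTLC1 and SGPP2, which fell and whose windows hold the motif searched. Each is the 250 bases before a RefSeq start in GRCh38.p14, 5′ to 3′ on the strand of the gene. Capitals mark CAGGTG, searched on both strands and so printed as its complement where it lies on the other one; it is an E-box that repressors of the ZEB and SNAI families bind. S1PR3 (chr9:88990613-88990862, plus strand) and SGPP2 (chr2:222423738-222423987, plus strand) each have another start further downstream, and the upstream window is printed. SPTLC2 lies at chr14:77616638-77616887 and SPTLC1 at chr9:92115414-92115663, both on the minus strand.
S1PR3: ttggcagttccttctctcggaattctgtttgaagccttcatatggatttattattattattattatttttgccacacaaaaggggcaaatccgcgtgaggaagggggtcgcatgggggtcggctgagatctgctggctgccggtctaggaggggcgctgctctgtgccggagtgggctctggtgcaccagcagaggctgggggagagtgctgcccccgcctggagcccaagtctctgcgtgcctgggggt
SGPP2: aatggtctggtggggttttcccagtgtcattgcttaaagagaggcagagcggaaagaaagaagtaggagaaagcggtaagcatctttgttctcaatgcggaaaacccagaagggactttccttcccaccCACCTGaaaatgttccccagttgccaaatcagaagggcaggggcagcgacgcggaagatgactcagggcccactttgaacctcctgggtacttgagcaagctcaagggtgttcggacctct
SPTLC2: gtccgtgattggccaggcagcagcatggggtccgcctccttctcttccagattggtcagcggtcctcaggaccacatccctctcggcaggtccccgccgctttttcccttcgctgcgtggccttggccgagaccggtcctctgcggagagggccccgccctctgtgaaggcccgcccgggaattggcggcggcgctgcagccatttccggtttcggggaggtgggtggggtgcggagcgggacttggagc
SPTLC1: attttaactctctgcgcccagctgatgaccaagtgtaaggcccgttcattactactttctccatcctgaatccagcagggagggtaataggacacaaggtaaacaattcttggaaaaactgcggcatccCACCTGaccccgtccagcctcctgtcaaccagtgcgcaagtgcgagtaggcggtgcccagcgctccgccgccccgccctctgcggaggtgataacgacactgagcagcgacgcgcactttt

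The printed SGPP2 and SPTLC1 windows each held CAGGTG once, 121 bases before the start in both, and the S1PR3 and SPTLC2 windows did not hold it. The window of the downstream SGPP2 start, not printed, held it 2 times, 115 and 84 bases before that start. RefSeq windows were found for 28 of the 36 members, with 42 starts. CAGGTG lay in 9 of the 42 windows and in 17.5% of all 35116 windows of this length. Among members that fell, 2 of 10 genes with a window had a match, and among those that rose, 0 of 2. Matches also lay in 2 of 11 genes not called and 3 of 5 not tested. The 17.5% is a share of windows, and no share per gene was counted over all genes. A match is a run of letters and not a measured binding site.

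A second E-box, CACGTG, known from MYC and TFEB family factors and identical on both strands, lay in 0 of the 42 windows and in 6.34% of all windows. With no match of it among the members, no overlap of the motifs could arise there.

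Serine palmitoyltransferase, the first and rate-limiting enzyme of the pathway, showed opposite changes in its 2 alternative catalytic subunits. SPTLC2 (chromosome 14, 77973272 to 78083110, GRCh37, as all positions below, from the locus entries of the authors' Tuxedo table, which can join neighbouring genes) had 3329, 3441 and 4336 normalized counts in the control libraries 1 to 3 and 998, 814 and 1666 in the flotillin libraries. Flotillin library 3 was the highest of its line and still far below the lowest control library. SPTLC2 fell 3.19-fold, from 3702 ± 552 to 1159 ± 449 (SD, n = 3). In the authors' deposited table it had a log2 fold change of -1.59 (adjusted p = 1.19e-05). SPTLC3 (chromosome 20, 12989627 to 13147411), whose enzyme accepts shorter acyl-CoA substrates, had 506, 552 and 859.9 in control and 1362, 1269.6 and 983 in flotillin libraries. The ranges were separate but library 3 of the 2 groups came close, at 859.9 and 983. SPTLC3 rose 1.89-fold between the means (log2 fold change 0.88, adjusted p = 0.0171 in the authors' deposited table; q = 0.172 in their Tuxedo table). The fold was 2.49 in libraries 1 and 2 and 1.14 in library 3.

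Per length, the order of the catalytic subunits was inverted. In the authors' deposited Tuxedo table SPTLC2 stood at 19.5 FPKM in control and 5.85 in flotillin cells, and SPTLC3 at 10.3 and 17.7. SPTLC3 thus held 34.5% of their summed FPKM in control and 75.2% in flotillin cells. Within libraries, the log2 ratio of SPTLC3 over SPTLC2 normalized counts was -2.72, -2.64 and -2.33 in control and 0.45, 0.64 and -0.76 in flotillin libraries, a mean shift of 2.67. Every flotillin library had the higher ratio, which follows from the separate ranges of both genes. Among the flotillin libraries, library 3 had the lowest ratio. The common subunit gene SPTLC1 (chromosome 9, 94793427 to 94877690) had 4662, 5187 and 4753 normalized counts in control and 2764, 3381 and 2845 in flotillin libraries, without overlap, and fell 1.62-fold (adjusted p = 0.00742 in the authors' deposited table).

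Downstream of the transferase, DEGS1, the desaturase that turns dihydroceramide into ceramide, overlapped between the lines. It had 7239.6, 10019 and 9654 normalized counts in control and 6488, 7865 and 8687 in flotillin libraries, and its adjusted p from the authors was 0.56. The 95% interval of the limma log2 difference ran from -0.70 to 0.26. Its paralog DEGS2 held 5 reads in all control and 1 in all flotillin libraries and was not tested.

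Among ceramide synthases, which differ in the length of the fatty acid they attach, CERS6 fell. CERS6 (chromosome 2, 169312759 to 169631644), which uses mainly C16 acyl-CoA, had 2634, 3492 and 2972 normalized counts in control and 1628, 1386 and 1928 in flotillin libraries, without overlap. The fall was 1.84-fold (log2 fold change -0.86, adjusted p = 0.0041 in the authors' deposited table). CERS2, the very-long-chain synthase, had 10952, 13355 and 13111 in control and 9013, 10020.3 and 10263 in flotillin libraries. CERS5, like CERS6 a C16 synthase, had 1237, 1289 and 1162 in control and 924, 1088 and 915 in flotillin libraries. Both lay lower in every flotillin library than in any control library, but their adjusted p-values in the authors' deposited table were 0.226 and 0.26. CERS2 made up 90.2% of the summed ceramide synthase FPKM in control and 90.6% in flotillin cells. CERS6 held 3.43% and 2.63% of it. The remaining synthases were near the limit of detection, with 6 and 8 reads over the 3 control and 3 flotillin libraries for CERS1, 17 and 2 for CERS4, and 1 and 0 for CERS3. A count of 0 allows up to 3 reads, and such intervals cover counting error only. CERS1 reads are uncertain, because its transcripts share exons with the neighbouring gene GDF1.

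Enzymes that consume ceramide changed in both directions. UGCG (chromosome 9, 114659046 to 114697649), which makes glucosylceramide and so opens the glycosphingolipid branch, had 1793, 1931 and 1975 normalized counts in control and 636, 1014 and 881 in flotillin libraries. Every flotillin library lay below every control library, and UGCG fell 2.25-fold (log2 fold change -1.13, adjusted p = 0.000145 in the authors' deposited table). SGMS1 (chromosome 10, 52065346 to 52384795), the Golgi sphingomyelin synthase, had 1544, 1414 and 1199 in control and 748, 896 and 906 in flotillin libraries, again without overlap. It fell 1.63-fold (adjusted p = 0.0156 in the authors' deposited table). SGMS2, the second sphingomyelin synthase, which is found largely at the plasma membrane, had 2618, 3111 and 3383 and 2227, 2328 and 2762, with overlapping groups (adjusted p = 0.335). The opposite direction was seen in CERK, the kinase that makes ceramide-1-phosphate, with 1209, 1027 and 1005 in control and 2017.2, 1910.0 and 2175 in flotillin libraries. These ranges were far apart compared with their spread, and CERK rose 1.88-fold (log2 fold change 0.89, adjusted p = 0.000325 in the authors' deposited table). The authors' deposited Tuxedo table gives CERK a log2 fold change of 0.72 with a q-value of 0.693; its locus there spans 587735 bases and joins neighbouring genes.

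Of the sphingomyelinases, the acid lysosomal enzyme was the one called. SMPD1 (chromosome 11, 6411655 to 6440644), deficient in Niemann-Pick disease types A and B, had 573, 411 and 337 normalized counts in control and 909, 790.4 and 877 in flotillin libraries. All flotillin libraries were higher than all control libraries, and the rise was 1.95-fold (log2 fold change 0.93, adjusted p = 0.00559 in the authors' deposited table). The neutral enzyme gene SMPD2 had 392, 545 and 548 in control and 288, 379 and 310.5 in flotillin libraries, lower without overlap, but its adjusted p there was 0.09. With a term for library 3, limma gave SMPD2 an adjusted p of 0.039. The neutral enzyme genes SMPD3 and SMPD4 overlapped between the lines, with adjusted p-values of 0.235 and 0.7 in the same table. SMPD4 has near-identical copies elsewhere in the genome, so its reads are uncertain. SMPD3 was low, at 46.5 and 29.0 mean normalized counts. SMPD1 over SGMS1, the lysosomal sphingomyelinase against the Golgi synthase, shifted by 1.70 on the log2 scale, from -1.68 ± 0.22 to 0.02 ± 0.24 (SD, n = 3). That this ratio separated the lines follows from the separate ranges of both genes and adds nothing to their calls.

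The ceramidases, which release sphingosine from ceramide, divided by type. ACER2 (chromosome 9, 19408925 to 19452018), the Golgi alkaline ceramidase, had 124, 220.0 and 146 normalized counts in control and 66.0, 62.8 and 53.5 in flotillin libraries. ACER3 (chromosome 11, 76571917 to 76734850), a further alkaline ceramidase of the Golgi and endoplasmic reticulum, had 908, 1367 and 1942 and 488, 488 and 892. The groups were separate for both genes, though for ACER3 only just, since control library 1 at 908 lay beside flotillin library 3 at 892. ACER2 fell 2.69-fold and ACER3 2.26-fold, and the authors' adjusted p-values were 0.000513 and 0.015. ASAH1, the acid ceramidase of lysosomes, had 4078, 4704 and 3798 in control and 4566, 4931 and 3981 in flotillin libraries. Its groups overlapped (adjusted p = 0.787 in that table), and the 95% interval of the limma log2 difference was -0.31 to 0.51. Per length ASAH1 was the leading ceramidase in both lines, with 86.7% of the summed ceramidase FPKM in control and 93.7% in flotillin cells. ASAH2, which has a near-identical partial copy, ASAH2B, had 21 reads in all control and 11 in all flotillin libraries, that is 4.74, 6.69 and 8.89 normalized counts in control and at most 4.11 in flotillin libraries, without overlap (adjusted p = 0.511), and ACER1, an epidermal enzyme, 1 and 0.

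**Figure D2:**
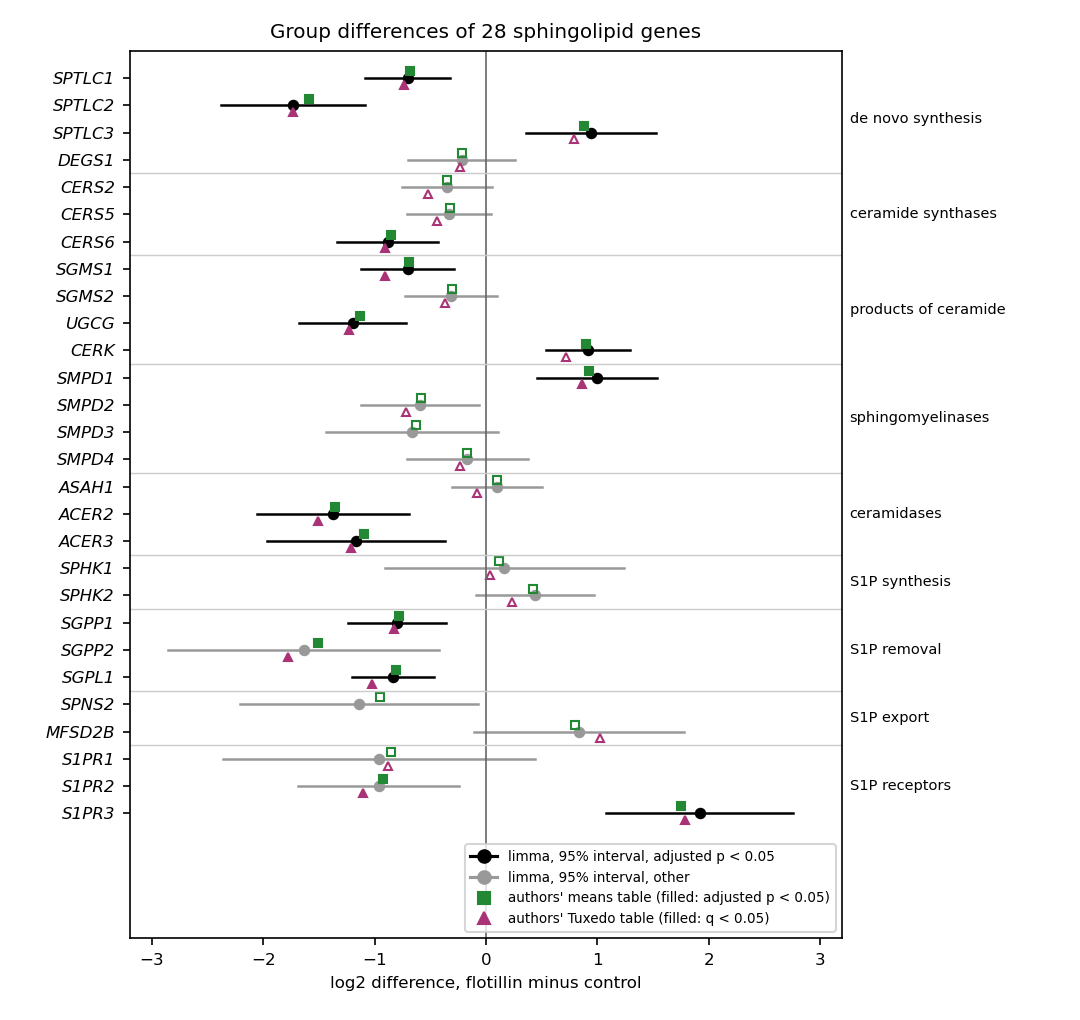
Log2 difference, flotillin minus control, of the same 28 members: circles with bars give limma on the recovered libraries with its 95% interval, squares the authors' table of means and triangles their Tuxedo table. SPTLC2 and S1PR3 lie farthest from 0 among the limma calls, at -1.73 and 1.92, and the intervals of SPHK1 and S1PR1 span 0.

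The S1P lyase and both S1P phosphatases fell, while the kinases that make S1P were not called. SGPL1 (chromosome 10, 72575717 to 72640930), the lyase that cleaves S1P irreversibly, had 2835, 3115 and 3017 normalized counts in control and 1558, 1616 and 1877 in flotillin libraries. The phosphatase gene SGPP1 (chromosome 14, 64150932 to 64194734) had 1452, 1919 and 1873 and 861, 1034 and 1112. SGPP2 (chromosome 2, 223288771 to 223425667), the second S1P phosphatase, had 9243, 8676 and 3153 in control and 2553, 2947 and 1115 in flotillin libraries. None of the 3 genes overlapped between the lines, but control library 3 of SGPP2 came close to the flotillin range. SGPL1 fell 1.78-fold, SGPP1 1.74-fold and SGPP2 3.19-fold, with log2 fold changes of -0.81, -0.78 and -1.51 and adjusted p-values of 0.000931, 0.0082 and 0.00446 in the authors' deposited table. For SGPP2 limma on all libraries gave an adjusted p of 0.0583, and without library 3 of both groups 0.000119. Its fall was 3.26-fold in libraries 1 and 2 and 2.83-fold in library 3. Per length SGPP2 was the more abundant phosphatase in both lines, with 91.4 and 26.7 FPKM against 20.9 and 11.7 for SGPP1 in the authors' deposited Tuxedo table. The broader lipid phosphatases of the pathway list, which also act on S1P and are named here after their values were seen, differed among themselves: PLPP2 fell, from 794 to 353 mean normalized counts (adjusted p = 0.00409). PLPP1, at 354 and 455, and PLPP3, at 313 and 401, were not called (adjusted p = 0.262 and 0.701).

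The sphingosine kinases were expressed at low levels. SPHK1, the mainly cytosolic kinase, had 87.3, 82.2 and 209 normalized counts in control and 92.0, 108 and 213 in flotillin libraries. Library 3 was high in both lines, at 2.47 and 2.12 times the mean of libraries 1 and 2, and the groups overlapped. The authors' adjusted p for SPHK1 was 0.882, and the 95% interval of the limma log2 difference, -0.91 to 1.24 on that scale, leaves room for a change in either direction. SPHK2, the kinase found largely in the nucleus and at internal membranes, had 124, 103 and 107 and 159, 139.8 and 154. Each flotillin library was higher than each control library, but the authors' adjusted p was 0.233 and the limma interval was -0.09 to 0.97. In FPKM, SPHK1 stood at 3.45 and 3.54 and SPHK2 at 2.25 and 2.66, both below the lyase at 23.1 and 11.3 in the authors' deposited Tuxedo table. The log2 ratio of SPHK2 over SGPL1 within libraries went from -4.75 ± 0.21 to -3.48 ± 0.16 (SD, n = 3), and that of SPHK1 over SGPL1 from -4.70 ± 0.75 to -3.71 ± 0.50. Every flotillin library had the higher SPHK2 ratio, which follows from the separate ranges of SPHK2 and SGPL1, and SPHK2 itself was not called. The SPHK1 ratios overlapped between the lines, at -3.85 in control library 3 and -4.08 in flotillin library 1.

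Exporters of S1P were scarce. SPNS2, the exporter of endothelial and epithelial cells, had 17.1, 20.1 and 26.7 normalized counts in control and 16.0, 7.09 and 6.17 in flotillin libraries. MFSD2B, the exporter of red cells and platelets, had 32.3, 20.1 and 39.5 and 41.0, 44.6 and 83.3. In the authors' deposited Tuxedo table SPNS2 stood at 0.216 and 0.0910 FPKM and MFSD2B at 1.06 and 2.15. The lines were separate for both, SPNS2 lower and MFSD2B higher in flotillin libraries, but only just. Control library 1 and flotillin library 1 held 18 and 16 reads of SPNS2, and control library 3 and flotillin library 1 held 40 and 41 of MFSD2B. Neither passed the test, the authors' adjusted p-values being 0.177 and 0.166. For MFSD2B, limma with a term for library 3 gave 0.0425.

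Of the S1P receptors, S1PR3 rose and S1PR2 fell. S1PR3 (chromosome 9, 91605778 to 91619925), which couples to Gi, Gq and G12/13 proteins, had 994, 1169 and 493 normalized counts in control and 4171, 3271 and 2276 in flotillin libraries. The lowest flotillin library was above the highest control library, and library 3 was the lowest of its group in both lines. S1PR3 rose 3.66-fold, from 885 ± 351 to 3239 ± 948 (SD, n = 3). In the authors' deposited table it had a log2 fold change of 1.75 (adjusted p = 3.4e-05). The fold was 3.44 in libraries 1 and 2 and 4.62 in library 3. S1PR2 (chromosome 19, 10332109 to 10341948), a further G protein-coupled S1P receptor, had 101, 66.9 and 67.1 in control and 49.0, 34.5 and 35.0 in flotillin libraries. These groups did not overlap, and S1PR2 fell 1.98-fold (adjusted p = 0.0407 in the authors' deposited table, q = 0.0264 in their Tuxedo table); limma gave 0.0595.

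S1PR1, the Gi-coupled receptor best known from lymphocyte egress and endothelium, was not called. It had 523, 326 and 145 normalized counts in control and 218, 222 and 68.9 in flotillin libraries. Library 3 was the lowest in both lines, at 0.342 and 0.313 times the mean of libraries 1 and 2, and the ranges overlapped. Its adjusted p was 0.194 from the authors and 0.263 with limma. Limma without library 3 of both groups gave a log2 difference of -0.91 with an adjusted p of 0.0217. S1PR4 and S1PR5, receptors mainly of blood and nervous system cells, held 7 and 14 reads over all control libraries and 14 and 1 over all flotillin libraries.

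Per length, S1PR3 was the leading receptor of both lines and more so of the flotillin line. The authors' deposited Tuxedo table gives S1PR3 8.78 FPKM in control and 30.2 in flotillin cells, S1PR1 5.62 and 3.05, and S1PR2 0.930 and 0.434. The share of S1PR3 in the summed FPKM of the 5 receptors was 56.6% in control and 89.2% in flotillin cells. The log2 ratio of S1PR3 over S1PR2 normalized counts within libraries went from 3.44 ± 0.64 to 6.34 ± 0.28, and that of S1PR3 over S1PR1 from 1.51 ± 0.51 to 4.40 ± 0.59 (SD, n = 3). Separation of the S1PR3 over S1PR2 ratio follows from the separate ranges of both genes.

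**Figure D3:**
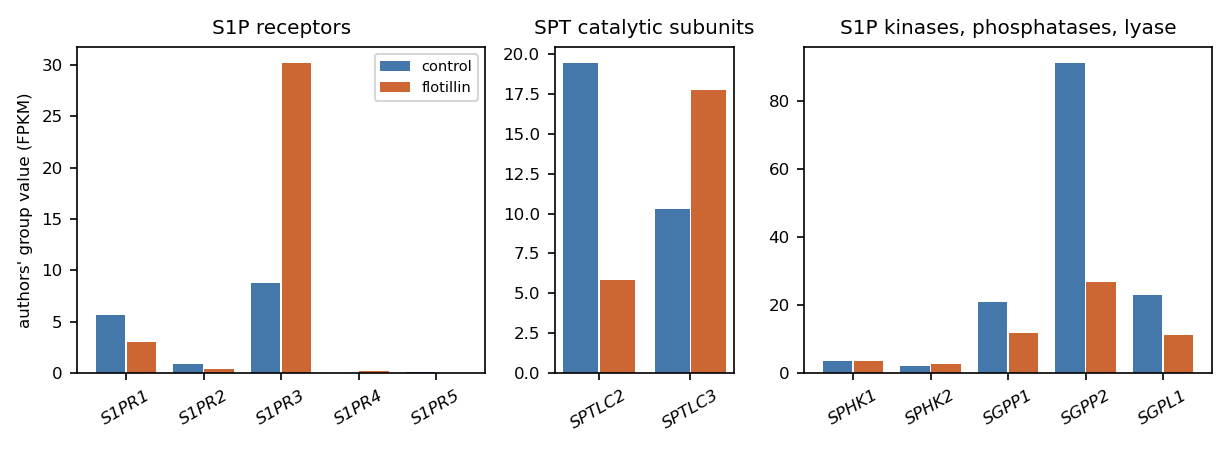
Authors' group values in FPKM for the S1P receptors, the 2 catalytic subunits of serine palmitoyltransferase, and the kinases, phosphatases and lyase of S1P, with control in blue and flotillin in orange; these are group values without error bars. SPTLC2 and SPTLC3 exchange their order, and S1PR3 goes from 8.78 to 30.2 FPKM.

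Members differed in how they moved with library 3, whose proliferation genes were high in both lines. Of the 28 members fitted, 6 were highest in library 3 of both groups (SPTLC2, SGMS2, SMPD4, ACER3, SPHK1 and MFSD2B) and 6 were lowest there (CERS5, SMPD3, ASAH1, SGPP2, S1PR1 and S1PR3). Over all 15818 fitted genes 28.0% were highest and 24.6% lowest in library 3 of both groups, so the members' share of 21.4% in each direction was no higher. The largest such differences were those of S1PR1, SGPP2 and SPHK1 given above. ACER3 was 1.71 and 1.83 times the mean of its other libraries in library 3 of the control and flotillin line, and S1PR3 stood at 0.456 and 0.612 times the mean there. All 15 called members had the same direction within library 3 as within libraries 1 and 2, which follows from their non-overlapping libraries. The next fits rest on library 3 having been singled out by its values in these data. Without library 3 of both groups limma called 12 falls and 4 rises among the 28 members, against 20.5% and 23.5% of all fitted genes (44.0% together). With a term for library 3 it called 13 falls and 5 rises, against 21.4% and 24.4% (45.9% together). The genes gained over the fit to all libraries were SGPP2, S1PR1 and S1PR2 in both, and SMPD2 and MFSD2B with the term alone.

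**Figure D4:**
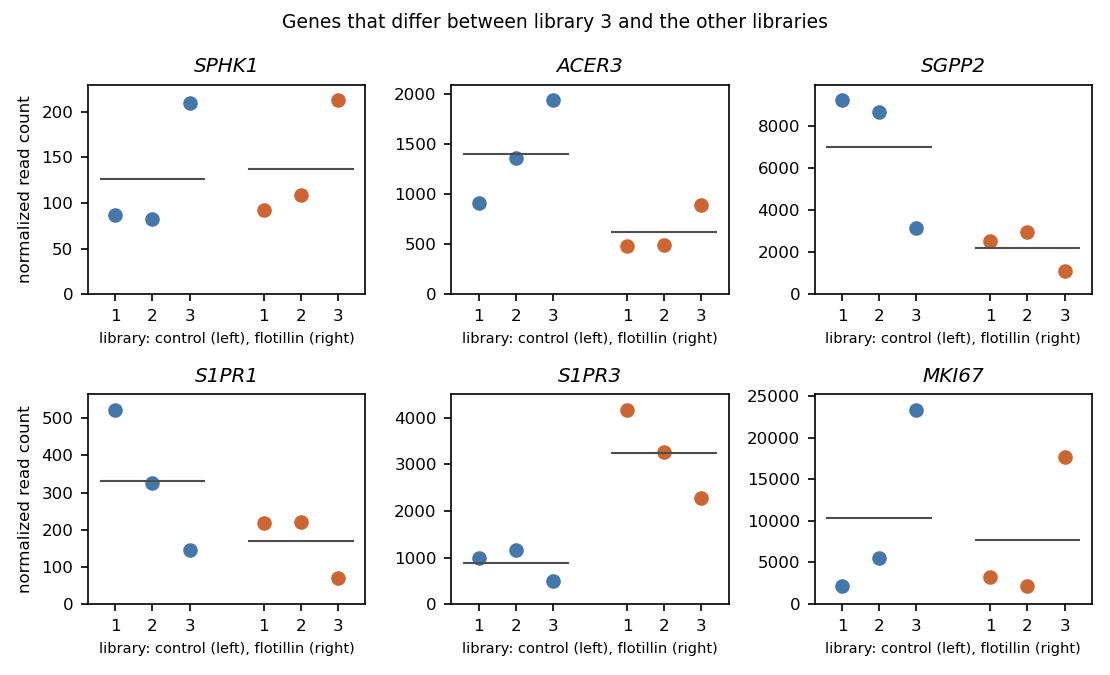
Normalized read count per recovered library of 5 members and the proliferation gene MKI67, control on the left in blue and flotillin on the right in orange; horizontal lines are group means. SPHK1 and ACER3 are highest and SGPP2, S1PR1 and S1PR3 lowest in library 3 of both lines, where MKI67 is highest.

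Other genes of the pathway, from a list of 48, gave fewer calls. Of 43 with an adjusted p in the authors' deposited table of means, 11 fell and 2 rose, with a median log2 fold change of -0.33. Over all tested genes 12.0% fell and 11.6% rose, with a median of -0.04. The largest falls were FA2H, SMPDL3B and UGT8. FA2H, the fatty acid 2-hydroxylase, had 56.9, 20.1 and 157 normalized counts in control and 0, 2.03 and 0 in flotillin libraries (adjusted p = 1.28e-09 in that table, q = 0.496 in the Tuxedo table, where it was not called). SMPDL3B, a membrane-anchored relative of acid sphingomyelinase, fell 5.78-fold, from 738 ± 51.5 to 128 ± 47.8 (SD, n = 3, adjusted p = 1.22e-11). UGT8, which makes galactosylceramide, fell 6.24-fold, from 999.9 ± 145 to 160.3 ± 62.4 (SD, n = 3, adjusted p = 3.03e-13). The 2 rises were the small transferase subunit gene SPTSSA, with 2129.9, 2170.1 and 1775 in control and 4187, 5441 and 2052 in flotillin libraries, and the ganglioside GD3 synthase gene ST8SIA1, with 22.8, 39.2 and 10.9 and 61.0, 83.1 and 45.2. SPTSSA overlapped between the lines (the authors' adjusted p = 0.0494), and ST8SIA1 did not (adjusted p = 0.0392). Limma called 9 falls and 0 rises among the 41 list genes it fitted (11.1% and 12.1% of all fitted genes), with 3 higher at an unadjusted p under 0.05. By branch, 4 of 11 tested genes of glycosphingolipid breakdown fell, 2 of 10 of its synthesis, 2 of 3 sphingomyelin side-branch genes, 2 of 8 genes of the sphingoid base and S1P end steps, 1 of 7 of synthesis and its regulators, and 0 of 4 lipid transfer genes.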

How the data were processed

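RNA of 6 samples, 3 per line, was sequenced from a stranded mRNA kit, per the labels. The submitters' processing notes name GRCh37, HISAT2 2.1.0, HTSeq 0.9.1 and DESeq2 1.18.1. Gene models and strand setting were not given in the sources used here. One deposited table holds, as signal, the authors' group means of size-factor-normalized counts. It also has the authors' log2 fold changes, with p-values raw and adjusted, per the file headers. These need not match the folds given here, which are ratios of group means. For CERS4 the ratio of control over flotillin was 7.89 and the authors' log2 fold change -1.37. The second deposited table, from the Tuxedo pipeline per its name, holds the authors' FPKM per group, log2 fold changes, a test score and q-values. Positions are its locus entries, counted from 1.

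Whole reads per library were recovered from the means: each mean adds 3 whole counts scaled by their libraries' size factors. One solution was found for every mean up to 18000, which covers 99.5% of means above 0 in each group; 193 genes above that were left out. Altered means had a solution in 0.15% and 0% of 2000 cases, and the search returned 100% of simulated reads exactly. Both checks covered only the lower part of that range, below the means of CERS2, and used the fitted size factors. Limma 3.58.1 (R 4.3.3; trend, robust, Benjamini-Hochberg) was run on log2(normalized count + 1) for 15818 genes with a mean of at least 10, and was tested on simulated data. The authors' adjusted p under 0.05 is the main result. No count test was run on the recovered reads.

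All 36 members are named; full values go to called members and to those whose libraries did not overlap, and from the pathway list up to 3 of the largest rises and falls are named, of which 2 rises passed. Genes were matched by symbol and checked by gene identifier: 35 of the 36 members were in the name table, all with the same symbol, and the KRT18 row was taken by its identifier because the file gives that symbol to another locus. Members and lists were chosen with earlier results of these data known. Alternatives were a stricter threshold, the second table, other pseudocounts, filters and scalings, leaving out libraries, and a term for library 3. Promoters came from RefSeq (GRCh38.p14), and no coordinates were converted. Tables used Python 3.11.15, numpy 2.4.6, pandas 2.3.3 and numba 0.67.0, and figures matplotlib 3.10.9.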

Additional observations from a re-analysis of the deposited data

How the results depend on the processing

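No paired analysis was possible because the recovered libraries carry no replicate number. Of the members, 2 rose in the authors' Tuxedo table against 4 in their table of means. At a q-value under 0.01 the Tuxedo table held 1 rise and 4 falls among them. Shares over all tested genes were not counted at thresholds of 0.01. Limma gave 4 rises and 8 or 9 falls with other pseudocounts, filters and scalings, and 5 and 13 with a term for library 3. Leaving out 1 library gave 0 to 4 rises and 2 to 10 falls: 2 and 3 without control library 2, 0 and 2 without flotillin library 1 (4 rises at an unadjusted p under 0.05) and 1 and 2 without flotillin library 2. SPTLC2 and UGCG were called under all 16 alternatives to the table of means. Of the pathway list, 0 rose at an adjusted p under 0.01 in the authors' table of means (2 at an unadjusted p under 0.05), and 7 fell in the Tuxedo table. Members that were not called changed sign: the log2 difference of SPHK1 was -0.03, -0.07 and -0.20 without control library 1, control library 2 and flotillin library 3 (up to 0.60 without control library 3), that of SMPD4 was 0.029 without control library 3 (range to -0.33, without flotillin library 3), and that of ASAH1 was -0.080 in the Tuxedo table. Members with a mean under 100 have no value under the filter at 100. The limma counts did not drop in every fit with fewer libraries. They were 4 rises and 12 falls without library 3 of both groups, and 4 and 10 without control library 3. Why the counts differed between fits was not tested. Shares over all fitted genes were not counted for fits that left out 1 library or changed pseudocount, filter or scaling. Member counts of those fits therefore cannot be set beside all genes. Depth limits CERS1, CERS3, CERS4, DEGS2, ACER1, ASAH2, S1PR4 and S1PR5, each with at most 21 reads per line.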
